A study of Mus musculus with 12 samples.

Results

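Neat1 and Malat1 are long noncoding RNAs of the cell nucleus whose genes lie side by side on mouse chromosome 19. They were chosen by name, as 2 of the 54532 genes in each count file, and both had counts high enough to be tested. The cells were L929, an established mouse fibroblast line, and polyA-selected RNA was sequenced from 12 libraries 6 hours after transfection, 2 libraries under each of 6 labels. The groups were HT-DNA transfection, hpRNA transfection, cGAMP stimulation, G3-YSD transfection, HSV transfection and mock, whose label says that the cells had no treatment. cGAMP is the messenger that the DNA sensor cGAS makes to switch on STING, and the other names are given as the labels write them. The labels give neither doses nor a transfection reagent alone as a control. All groups come from 1 cell line, and the labels call the libraries duplicates without saying whether they came from separate cultures, so the p-values measure only the spread between libraries, which may be technical. The digits 1 and 2 were read as replicate numbers, although for HSV they could also name virus types.

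Neat1 is the scaffold of paraspeckles, nuclear bodies built when the long form of this RNA gathers the proteins Nono, Sfpq and Pspc1. A short form that shares its start is made by cleavage and polyadenylation. The long form reads through that site and is cut by RNase P, and its end is protected by a triple helix in place of a polyA tail added afterwards. Malat1 collects at nuclear speckles, bodies rich in splicing factors. Its 3′ end is also cut by RNase P and held in a triple helix. Both RNAs are abundant in cultured fibroblasts, and Neat1 is known as an RNA that responds to stress and to viral infection.

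On the GRCm38 (mm10) assembly, Neat1 (ENSMUSG00000092274) spans chr19:5824708-5845478 and Malat1 (ENSMUSG00000092341) spans chr19:5795690-5802672. Both are annotated as long intergenic noncoding RNA genes on the minus strand, and 22.04 kb separate them. The exons of Neat1 cover 20771 bases, which is the length of its long transcript, an unspliced RNA annotated as Neat1-201. The short annotated form with a polyadenylation site, Neat1-202, has 2 exons and 3004 bases. Malat1-201 is unspliced and has 6983 bases. The counts are given per gene, so short and long Neat1 RNA cannot be told apart in them. PolyA selection captures the long form only as far as A-rich stretches or tails allow.

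The 3′ ends of these transcripts are shown because they set which Neat1 and Malat1 molecules polyA selection can hold. In the sequences of the short Neat1 form and of the annotated Malat1 end, capitals mark the last AATAAA, the signal for polyadenylation. It ends 14 bases before the end of Neat1-202 and 16 bases before the end of Malat1-201. In the other pair, capitals mark a U-rich stretch and an A-rich tract in the region of the triple helix, written with T for U. They were found by the rule below and not from a mapped helix, so other parts of the helix are not marked. The tract was taken as the last 11 bases of Neat1-201, and the stretch as the last 10 bases of the longest run that the last 400 bases of Neat1-201 and Malat1-201 share, which is 16 bases long. All 4 are on the minus strand of GRCm38 and come from the GENCODE M21 transcripts, 5′ to 3′.
Neat1-202, chr19:5842307-5842366: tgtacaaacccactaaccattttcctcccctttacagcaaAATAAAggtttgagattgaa
Malat1-201, chr19:5795690-5795749: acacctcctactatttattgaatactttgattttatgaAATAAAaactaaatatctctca
Neat1-201, chr19:5824708-5824787: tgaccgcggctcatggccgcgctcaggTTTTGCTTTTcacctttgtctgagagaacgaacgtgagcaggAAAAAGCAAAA
Malat1-201, chr19:5795982-5796042: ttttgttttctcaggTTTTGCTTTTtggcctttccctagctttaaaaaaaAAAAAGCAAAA

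The long Neat1 transcript is annotated to end exactly at its A-rich tract, with 0 bases after it. The annotated Malat1 transcript runs on for 292 bases past the same tract, over the stretch from which RNase P releases a small RNA. The letters TTTTGCTTTT and AAAAAGCAAAA were searched on the transcript strand in the last 400 bases of 122312 annotated transcripts. TTTTGCTTTT occurred in 0.298% and AAAAAGCAAAA in 0.117% of them. The only 2 transcripts that held both were Neat1-201 and Malat1-201, which is 0.00164% of those searched. The letters were taken from these transcripts. It was thus fixed beforehand that Neat1-201 holds both and that Malat1-201 holds TTTTGCTTTT. AATAAA occurred in the last 60 bases of 27.2% of 141515 transcripts.

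Total counts ranged from 12650790 to 18912400 per library, lowest in HSV 2 and G3-YSD 2. The number of genes detected was highest in G3-YSD 1 (26496) and HSV 1 (26241), followed by G3-YSD 2 (23997) and HSV 2 (23909). It lay between 21635 and 22550 in the libraries of the other labels. The fibroblast markers Vim, Sparc, Lgals1, Col1a1 and Col1a2 were detected in every library, but Thy1 lay between 0.0571 and 0.488 CPM (counts relative to the library total, scaled by TMM). The summed level of 15 markers of other cell types lay between 76.8 and 107.9 CPM, and most of it was Cd68 and Lyz2. Cd3e, which marks T cells, was at 0 in the 8 libraries labelled HT-DNA, hpRNA, cGAMP and mock. Of these 15 markers 9 were tested and 0 were called in G3-YSD or HSV by edgeR or DESeq2. By edgeR, 1 in G3-YSD and 3 in HSV had an unadjusted p under 0.05, beside 4072 and 4092 of all 16840 genes tested. Each library resembled a library of another label more than the other library of its own label. G3-YSD 2 and HSV 2 differed from each other by 0.134 (root mean square over genes, log2 CPM) but from the other libraries of their labels by 1.15 and 1.14. These libraries also had the highest shares of mitochondrial counts, 3.64% in G3-YSD 2 and 3.53% in HSV 2, against 2.03% to 2.52% in the other 10. Results that rest on them are therefore given with and without them. The mock libraries were also unlike each other, with a difference of 0.584 on the same measure, where mock 1 differed from hpRNA 1 by 0.123. Every fold change against mock rests on these 2 unlike libraries. With G3-YSD 1 and HSV 1 left out, the markers of other cell types had median log2 fold changes of 0.70 in G3-YSD and 0.98 in HSV. Over all genes the median was 0.01 in both. With G3-YSD 2 and HSV 2 left out, the medians of these markers were 0.34 in G3-YSD and 0.64 in HSV, beside 0.03 over all genes in both. Pecam1, an endothelial marker, had 0.472 and 2.92 CPM in G3-YSD and 0.613 and 3.47 CPM in HSV, against 0.227 and 0.183 CPM in mock, and was named after its values were seen. The part of these markers in the Neat1 values was not tested. Less RNA per cell and fewer cells with the RNA cannot be told apart in bulk libraries.

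Neat1 was lowest in the libraries G3-YSD 2 and HSV 2, and it was lower in library 2 than in library 1 under all 6 labels. It measured 487.1 CPM in HT-DNA 1 and 349.9 CPM in HT-DNA 2. In hpRNA it measured 575.3 and 472.6 CPM, and in cGAMP 464.4 and 357.2 CPM. In G3-YSD the values were 426.4 and 115.0 CPM, and in HSV they were 426.2 and 124.4 CPM. The mock libraries had 657.7 and 432.7 CPM. The G3-YSD and HSV libraries all lay below both mock libraries, but G3-YSD 1 and HSV 1 did so only narrowly, and the other labels overlapped mock.

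Malat1 was highest in G3-YSD and HSV and varied less. The HT-DNA libraries measured 560.8 and 473.2 CPM, the hpRNA libraries 405.5 and 429.4 CPM, and the cGAMP libraries 499.6 and 503.8 CPM. The G3-YSD libraries had 611.7 and 805.2 CPM, and the HSV libraries had 715.0 and 823.2 CPM. The mock libraries had 454.2 and 484.8 CPM. All 4 libraries labelled G3-YSD and HSV lay above all 8 others.

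**Figure D1:**
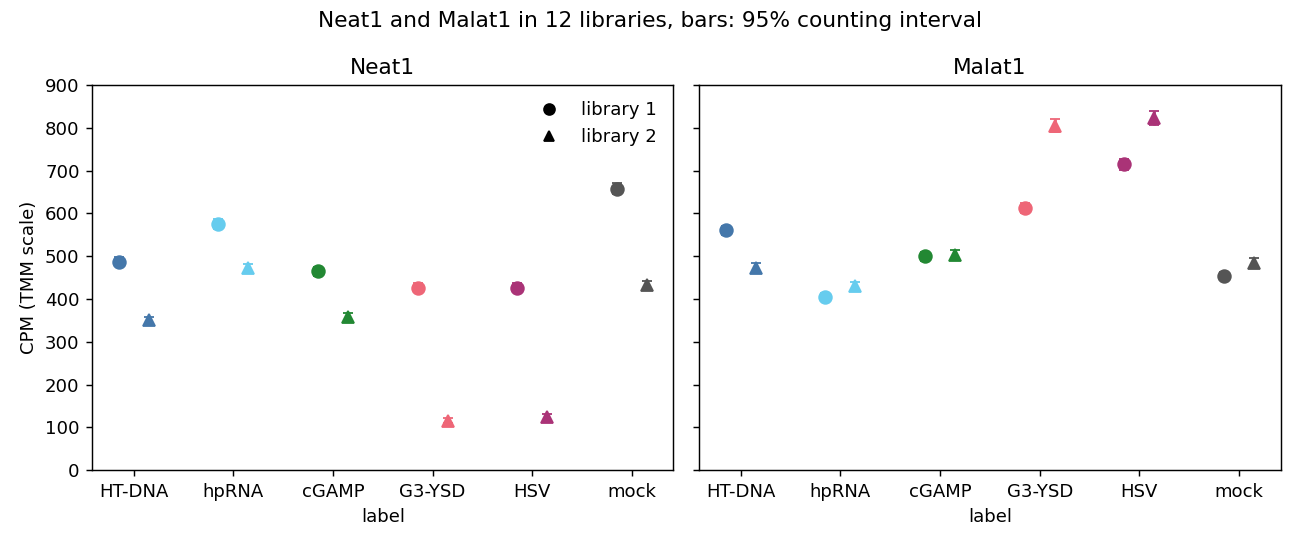
CPM of Neat1 (left) and Malat1 (right) in each of the 12 libraries, by label on the horizontal axis, with circles for library 1, triangles for library 2 and bars for the 95% counting interval. Neat1 is lowest in G3-YSD 2, at 115.0 CPM, and in HSV 2, at 124.4 CPM, where Malat1 is at 805.2 and 823.2 CPM.

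Both RNAs were deeply counted. Neat1 had between 1496 counts, in G3-YSD 2, and 11570 counts, in mock 1, and Malat1 had between 7107 and 11662 counts. The exact Poisson 95% interval of the lowest value, which covers counting error only, was 109.3 to 121.0 CPM. Counting error was thus small beside the gap between the highest and the lowest library, but not beside every gap. The Neat1 intervals of G3-YSD 1 (416.7 to 436.4 CPM) and HSV 1 (416.3 to 436.4 CPM) overlapped that of mock 2 (422.7 to 442.9 CPM). The highest Neat1 value was 5.72 times the lowest, and the highest Malat1 value was 2.03 times the lowest. Among 2461 genes with a mean of at least 100 CPM, the range of Neat1 over the libraries was wider than that of 96.3% of genes. The range of Malat1 was wider than that of 72.2%.

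How much lower Neat1 was in library 2 differed between labels. The ratio of library 2 to library 1 was 0.718 in HT-DNA, 0.821 in hpRNA and 0.769 in cGAMP, and 0.658 in mock. It was 0.270 in G3-YSD, with a 95% counting interval of 0.255 to 0.285, and 0.292 in HSV, with an interval of 0.276 to 0.309. For Malat1 the same ratio was 0.844 in HT-DNA, 1.06 in hpRNA and 1.01 in cGAMP, 1.32 in G3-YSD, 1.15 in HSV and 1.07 in mock. Some libraries with the same number under different labels were closer in Neat1 than the libraries of 1 label. HSV 1 had 0.9995 times the Neat1 CPM of G3-YSD 1, HSV 2 had 1.08 times that of G3-YSD 2, and cGAMP 2 had 1.02 times that of HT-DNA 2.

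By group mean, the order of Neat1 from high to low was mock, hpRNA, HT-DNA, cGAMP, HSV and G3-YSD, and the libraries of every pair of neighbours in this order overlapped. For Malat1 the order was HSV, G3-YSD, HT-DNA, cGAMP, mock and hpRNA. The ranges of HSV and G3-YSD overlapped, as did those of HT-DNA and cGAMP, and the other neighbours in this order did not overlap. An exact permutation test over all 10395 ways to pair the 12 libraries asked whether libraries of 1 label were closer than other pairings. Labels held 45.6% of the sum of squares of log2 CPM for Neat1 (exact permutation p = 0.385, adjusted p = 0.385 over 3 values). For Malat1 they held 89.6% (exact permutation p = 0.0105, adjusted p = 0.0315). All Malat1 values in G3-YSD and HSV lay above those of the other labels. The test does not separate that split from closeness within each label.

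The first question of the design was how each stimulus compared with mock, and Malat1 in HSV was the only case of the 2 RNAs and 5 stimuli to pass the test. All 5 comparisons share the mock libraries. Malat1 rose to 769.1 ± 76.5 CPM in HSV, against 469.5 ± 21.7 CPM in mock (SD, n = 2 each). The log2 fold change was 0.71 with a standard error of 0.16 and a 95% interval of 0.34 to 1.09 (edgeR quasi-likelihood test, adjusted p = 0.046 over 16840 genes). In this comparison 876 of the genes tested were called, which is 5.2%, or 1.73% for genes called higher as Malat1 was. Over all genes the log2 fold changes had a median of 0.11. With DESeq2 the Malat1 difference was also called, at 0.73 (adjusted p = 0.00119). Its size was 0.60 without G3-YSD 2 and HSV 2, and 0.80 without G3-YSD 1 and HSV 1. The edgeR call lay close to the threshold. It was lost when any 1 of the 4 libraries was left out, with adjusted p between 0.0575 and 0.295, with upper quartile scaling (edgeR, adjusted p = 0.0517), without the filter on low counts (0.0789) and when only these 4 libraries were fitted (0.355).

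In G3-YSD, Malat1 averaged 708.4 ± 136.8 CPM, against 469.5 ± 21.7 CPM in mock (SD, n = 2 each). The log2 fold change of 0.59 ± 0.16 (SE) did not pass the edgeR test (adjusted p = 0.0775), and its 95% interval of 0.22 to 0.97 lay above 0. Of all genes tested, 869 were called in this comparison, which is 5.16%, and 1.79% were called higher. With DESeq2 the Malat1 difference was called, at 0.61 (adjusted p = 0.00891). Of the alternatives, 4 called it, DESeq2 among them, and 10 did not. It was uncalled when only the 4 libraries compared were fitted (edgeR, adjusted p = 0.444). Its size was 0.37 without G3-YSD 2 and HSV 2, and 0.77 without G3-YSD 1 and HSV 1. The fits without these libraries were chosen after the data were seen and leave 1 library in G3-YSD.

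Neat1 averaged 270.7 ± 220.2 CPM in G3-YSD and 275.3 ± 213.4 CPM in HSV, against 545.2 ± 159.0 CPM in mock (SD, n = 2 each). The log2 fold changes were -1.01 ± 0.67 (SE) in G3-YSD and -0.99 ± 0.67 in HSV. Neither passed the edgeR test, with adjusted p = 0.372 in G3-YSD and 0.381 in HSV. The 95% intervals, from -2.55 to 0.53 in G3-YSD and from -2.52 to 0.55 in HSV, take in both no change and a drop of more than 4-fold.

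The size of the Neat1 difference depended on which library stood for the label. Without G3-YSD 1 and HSV 1, the log2 fold change of Neat1 against mock was -2.25 in G3-YSD and -2.14 in HSV. Without G3-YSD 2 and HSV 2 it was -0.36 in both comparisons. These fits were chosen after the data were seen, and the first keeps only the library with the lower Neat1 value of each label. They also drop the spread within G3-YSD and HSV, so no p-value is given. Each label then has 1 library, which is assumed to vary like the libraries of the other groups. In the fits without G3-YSD 1 and HSV 1, 43.6% of genes were called in G3-YSD and 43.7% in HSV. In the fits without G3-YSD 2 and HSV 2 these shares were 38.3% and 39.1%.

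HT-DNA, hpRNA and cGAMP gave no call for either RNA. Mean Neat1 was 418.5 ± 97.1 CPM for HT-DNA, 523.9 ± 72.6 CPM for hpRNA and 410.8 ± 75.8 CPM for cGAMP (SD, n = 2 each). Its log2 fold changes against mock were -0.38, -0.06 and -0.41 in that order of labels, each with an adjusted p of 1 by edgeR and a standard error near 0.66. That standard error takes in the wide Neat1 spread within G3-YSD and HSV. Without these labels, a fit chosen after the data were seen, the unadjusted edgeR p fell from 0.581 to 0.171 in HT-DNA. In cGAMP it fell from 0.556 to 0.144, and Neat1 stayed uncalled in both. Mean Malat1 was 517.0 ± 61.9 CPM for HT-DNA, 417.4 ± 16.9 CPM for hpRNA and 501.7 ± 2.91 CPM for cGAMP. Its log2 fold changes against mock were 0.14, -0.17 and 0.10, each with an adjusted p of 1 by edgeR and a standard error of 0.16. The 95% intervals for Malat1, from -0.23 to 0.51 in HT-DNA, from -0.54 to 0.20 in hpRNA and from -0.28 to 0.47 in cGAMP, take in changes of up to about 0.5 in size. No gene was called in these comparisons (0.0% of 16840). At an unadjusted p under 0.05 edgeR listed 62 genes in HT-DNA, 58 in hpRNA and 99 in cGAMP, and DESeq2 called 1 gene in HT-DNA, 1 in hpRNA and 0 in cGAMP.

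HT-DNA and hpRNA were also set against each other, since both were transfected whereas mock was untreated. The log2 fold change of HT-DNA over hpRNA was -0.32 ± 0.67 (SE) for Neat1 and 0.31 ± 0.16 (SE) for Malat1, both with an edgeR adjusted p of 1. The Malat1 libraries did not overlap, at 560.8 and 473.2 CPM for HT-DNA against 405.5 and 429.4 CPM for hpRNA. Here too 0.0% of all genes were called, 77 had an unadjusted p under 0.05 with edgeR, and DESeq2 called 0.

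The ratio of Neat1 to Malat1 counts within a library does not depend on scaling between libraries, and it covered a 10.1-fold range. The HT-DNA libraries had ratios of 0.869 and 0.739, the hpRNA libraries 1.42 and 1.10, and the cGAMP libraries 0.930 and 0.709. The G3-YSD libraries had ratios of 0.697 and 0.143, the HSV libraries 0.596 and 0.151, and the mock libraries 1.45 and 0.893. Neat1 thus had more counts than Malat1 in 3 libraries, mock 1 and both hpRNA libraries. All 4 G3-YSD and HSV libraries lay below all others, those of number 2 far below. Labels held 61.9% of the sum of squares of the log2 ratio (exact permutation p = 0.103, adjusted p = 0.154 over 3 values).

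**Figure D2:**
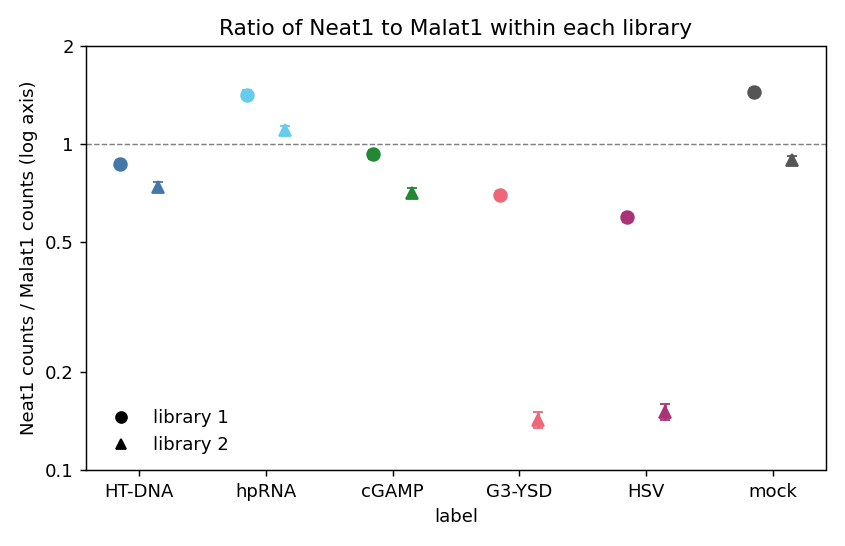
Neat1 counts divided by Malat1 counts in each library, on a log axis, by label, with 95% counting intervals and a dashed line at equal counts. The ratio is 0.143 in G3-YSD 2 and 0.151 in HSV 2, and 1.45 in mock 1.

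Per kilobase of exon, Malat1 was the more abundant RNA in every library when the long Neat1 length was used. Malat1 measured 58.1 to 117.9 CPM per kb, and Neat1 measured 5.54 to 31.7 CPM per kb over its 20771 bases. If all Neat1 counts came from the short form, its level would be 38.3 to 218.9 CPM per kb. The order of the RNAs within a library therefore depends on which Neat1 form the reads came from, which the gene counts do not show.

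The level of Neat1 was next set beside the interferon-stimulated genes, the antiviral genes that cytosolic DNA and RNA sensing turns on. The CPM of 25 such genes summed to 1502 and 5984 for HT-DNA, 197.4 and 3996 for hpRNA, and 1713 and 6387 for cGAMP. The sums were 18760 and 541.5 for G3-YSD, 18760 and 523.7 for HSV, and 199.2 and 4416 for mock. Although its label says untreated, mock 2 thus had a higher sum than HT-DNA 1 and cGAMP 1, so mock is a mixed baseline for these genes. In HT-DNA, hpRNA, cGAMP and mock, the library with the higher sum had less Neat1. In G3-YSD and HSV the library with the higher sum had more Neat1, 426.4 against 115.0 CPM in G3-YSD. Malat1 did not separate the libraries by this sum, with 405.5 CPM in hpRNA 1 and 823.2 CPM in HSV 2, both among those with low sums. Ifit1, which encodes an RNA-binding antiviral protein, measured 1805 and 65.7 CPM in G3-YSD and 1696 and 54.9 CPM in HSV, against 2.10 and 485.9 CPM in mock. None of the 25 genes was called by edgeR in G3-YSD or HSV against mock, where 5.16% and 5.2% of all genes were called. None had an unadjusted p under 0.05 by edgeR, beside 4072 and 4092 of all 16840 genes tested. DESeq2 called 1 in each, where it called 2106 and 2138 genes in all. The median log2 fold changes of the 25 genes were 2.10 in G3-YSD and 2.09 in HSV. These medians changed sign with the library: they were 3.08 in G3-YSD and 3.06 in HSV without G3-YSD 2 and HSV 2, with 1 gene called higher in each, and -2.48 and -2.55 without G3-YSD 1 and HSV 1, with 0 called.

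**Figure D3:**
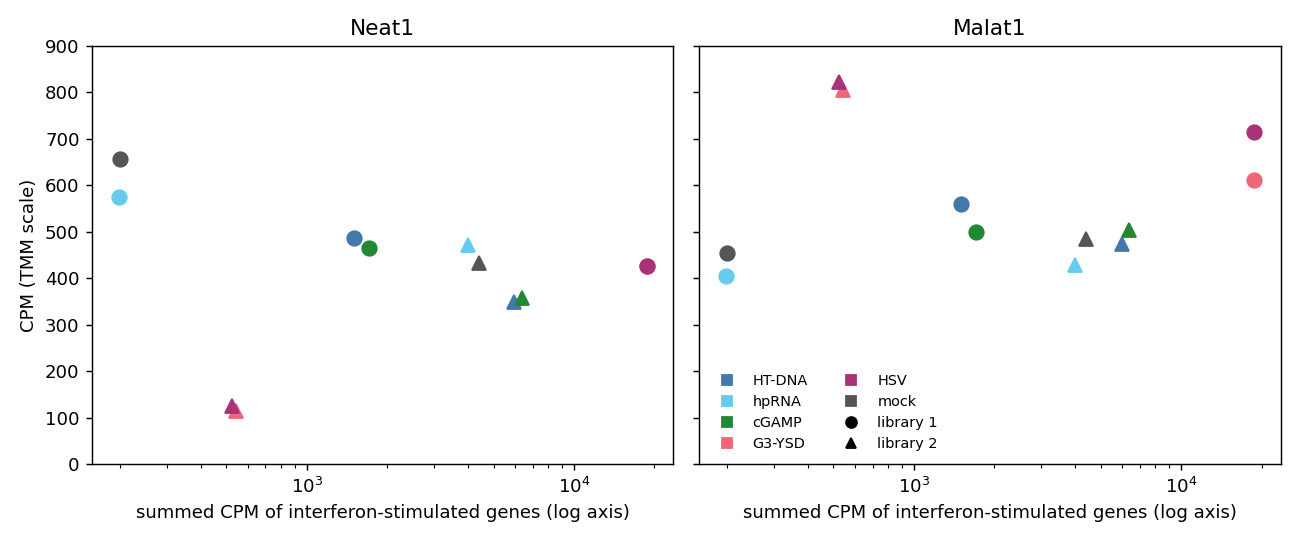
CPM of Neat1 (left) and Malat1 (right) against the summed CPM of interferon-stimulated genes on a log axis, 1 point per library, coloured by label. Neat1 is at 115.0 and 124.4 CPM in G3-YSD 2 and HSV 2, whose sums are 541.5 and 523.7, and at 657.7 CPM in mock 1, whose sum is 199.2.

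Around the Neat1 and Malat1 genes, some protein-coding genes fell in G3-YSD and HSV. Within 200 kb, 32 other genes are annotated and 21 were tested. In G3-YSD 3 of them fell, against 3.37% of all genes called lower, and in HSV 2 fell, against 3.47%. In both, 0 rose, where only 1.79% of all genes in G3-YSD and 1.73% in HSV were called higher. Their median log2 fold change was -0.39 in G3-YSD and -0.30 in HSV, beside 0.11 over all genes in both. Without G3-YSD 2 and HSV 2, 9 of 22 tested neighbours were called lower and 2 higher in G3-YSD, and 9 lower and 3 higher in HSV, where 38.3% and 39.1% of all genes were called. Without G3-YSD 1 and HSV 1 the counts of 21 were 11 lower and 1 higher in G3-YSD and 9 lower and 1 higher in HSV, where 43.6% and 43.7% of all genes were called.

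Ehbp1l1, which encodes a protein that binds Rab8 in membrane transport, fell the most among the neighbours called. It measured 95.7 and 87.4 CPM in G3-YSD and 96.3 and 89.2 CPM in HSV, against 217.8 and 209.0 CPM in mock. The log2 fold changes were -1.22 ± 0.12 (SE) in G3-YSD and -1.20 ± 0.12 in HSV (edgeR, adjusted p = 0.00736 and 0.00636). Unlike Neat1, it had nearly the same value in both libraries of each label. Pcnx3 fell as well, by 0.66 in G3-YSD and 0.59 in HSV on the log2 scale (edgeR, adjusted p = 0.0318 and 0.0429); it overlaps Map3k11 on the other strand.

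Frmd8, the nearest tested gene upstream of Neat1, encodes a partner of the iRhom proteins. It measured 43.5 and 37.5 CPM in G3-YSD and 46.0 and 37.3 CPM in HSV, against 80.0 and 64.5 CPM in mock. It fell in G3-YSD (log2 fold change -0.84, edgeR adjusted p = 0.0436), and in HSV its value of -0.80 had an edgeR adjusted p of 0.0505. Whether G3-YSD and HSV differ was not tested.

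Cdc42ep2, an effector of the small GTPase Cdc42, was like Neat1 lower in library 2 than in library 1 of both labels. It had 5.08 and 0.769 CPM in G3-YSD and 5.09 and 0.743 CPM in HSV, against 11.2 and 12.5 CPM in mock, with a log2 fold change of -1.999 in each and standard errors of 0.886 and 0.887 (edgeR, adjusted p = 0.213). Rela, which encodes the NF-kB subunit p65, had 161.9 and 59.7 CPM in G3-YSD, against 77.7 and 81.7 CPM in mock, and was not called. By 2-fold or more in both labels, 2 of the 21 neighbours (9.52%) were lower in library 2 than in library 1, against 17.3% of all genes. Small annotated genes inside Neat1 (Gm27533, Gm27505 and Gm28006) and inside Malat1 (Gm27694 and the antisense Gm37376) had 0 counts in all libraries. Because the strand setting of the counting is not known, overlapping genes may share reads or lose them.

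**Figure D4:**
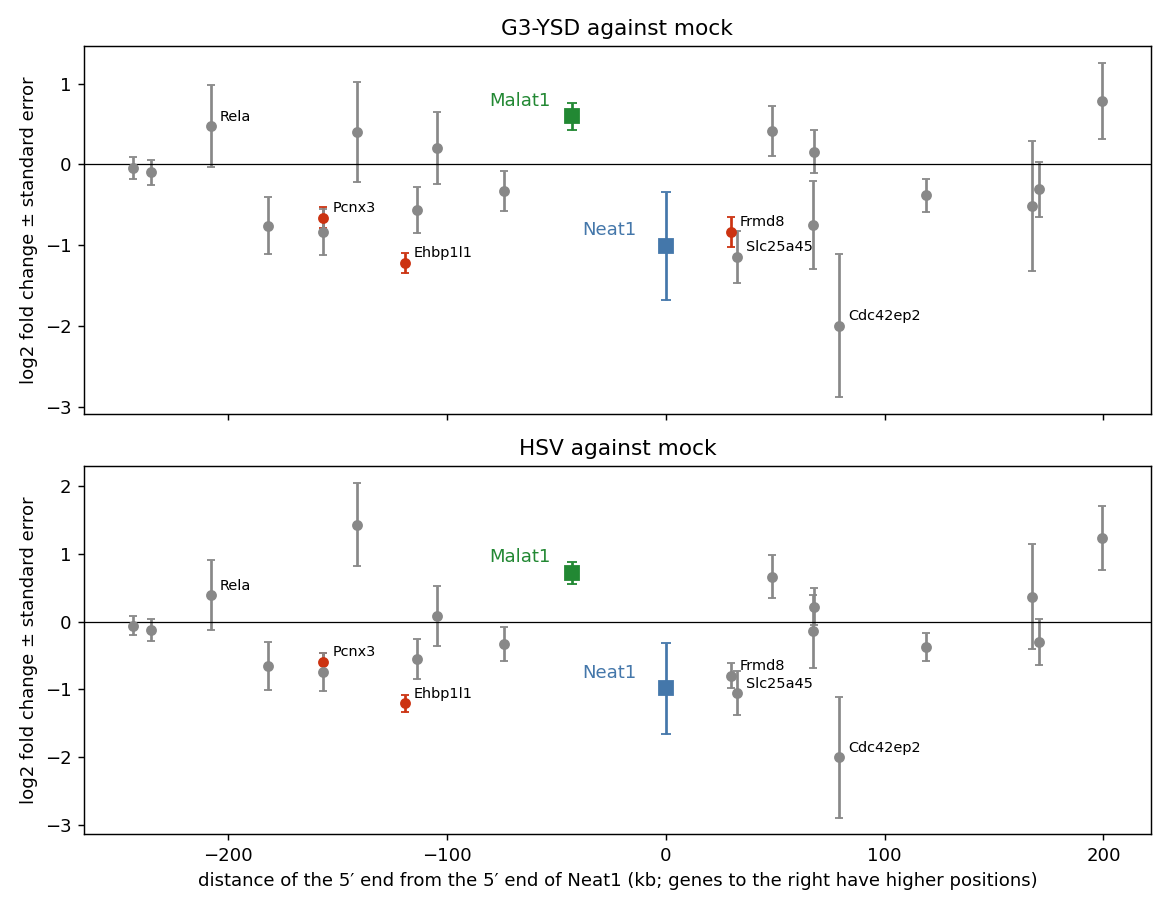
Log2 fold change with its standard error for Neat1, Malat1 (squares) and the 21 tested neighbours (circles, red where called) in G3-YSD (top) and HSV (bottom) against mock, by distance of the 5′ end from that of Neat1 in kb. Ehbp1l1, at -1.22 in G3-YSD and -1.20 in HSV, is the lowest neighbour called, and Malat1 lies above 0 while Neat1 lies below.

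Few genes of the proteins that build paraspeckles on Neat1 were called. Of 41 listed paraspeckle proteins 39 were tested, and in G3-YSD and in HSV 1 rose and 1 fell, where 5.16% and 5.2% of all genes were called. DESeq2 called 6 higher and 3 lower in G3-YSD and 6 and 2 in HSV. Of all genes DESeq2 called 2106 in G3-YSD and 2138 in HSV, where edgeR called 869 and 876. The median log2 fold changes were 0.07 in G3-YSD and 0.03 in HSV, beside 0.11 over all genes in both. Pspc1, a core paraspeckle protein, had 92.6 and 82.3 CPM in G3-YSD and 99.9 and 79.02 CPM in HSV, against 49.6 and 50.9 CPM in mock. It rose by 0.80 in G3-YSD and 0.83 in HSV on the log2 scale (edgeR, adjusted p = 0.0267 and 0.0231). Ahdc1, an AT-hook DNA-binding protein, fell to 8.86 and 15.1 CPM in G3-YSD and 9.56 and 18.2 CPM in HSV, against 54.7 and 37.6 CPM in mock (edgeR, adjusted p = 0.0296 and 0.0397).

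The partners of Pspc1 in the paraspeckle core were not called. Nono, which is needed to form paraspeckles, had 276.9 and 388.3 CPM in G3-YSD and 263.1 and 373.9 CPM in HSV, against 310.1 and 324.6 CPM in mock. Sfpq, which pairs with Nono, had 579.0 and 407.1 CPM in G3-YSD and 560.2 and 397.8 CPM in HSV, against 401.3 and 432.4 CPM in mock. Rbm14, which helps to hold paraspeckles together, and Hnrnpk, which favours the long Neat1 form, had log2 fold changes of -0.98 and 0.04 when G3-YSD was set against mock. For HSV they were -1.09 and 0.03. Rbm14 was at 51.0 and 21.6 CPM in G3-YSD, against 69.0 and 74.4 CPM in mock, and its edgeR adjusted p was 0.199. By 2-fold or more in both labels, 7 of the 39 (17.9%) were lower in library 2 than in library 1, against 17.3% of all genes. Leaving out G3-YSD 2 and HSV 2, 10 paraspeckle genes were called higher and 7 lower in G3-YSD, and without G3-YSD 1 and HSV 1 the counts were 9 and 11. In HSV the same counts were 11 and 9, and 9 and 11. Of all genes, 38.3% and 39.1% were called in the fits without the number 2 libraries and 43.6% and 43.7% in those without the number 1 libraries.

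Among 34 tested genes of RNA 3′ end formation, the step that decides between the Neat1 forms and that matures Malat1, 1 rose and 3 fell in G3-YSD and 2 rose and 2 fell in HSV. These are 4 of 34 in each, where 5.16% and 5.2% of all genes were called. DESeq2 called 2 higher and 5 lower in both, where it called 2106 genes in all in G3-YSD and 2138 in HSV. Pcf11, a cleavage and termination factor, had 207.8 and 330.7 CPM in G3-YSD and 204.8 and 329.5 CPM in HSV, against 88.1 and 94.4 CPM in mock. It rose by 1.56 in G3-YSD and 1.55 in HSV on the log2 scale (edgeR, adjusted p = 0.0214 and 0.0207). Clp1, a kinase of the same complex, fell to 11.7 and 12.2 CPM in G3-YSD and 10.7 and 10.5 CPM in HSV, against 17.8 and 18.7 CPM in mock (edgeR, adjusted p = 0.0456 and 0.0224). Cpsf6 and Nudt21, subunits of the factor that favours the short Neat1 form, were not called, with 145.6 and 104.6 CPM for Cpsf6 in G3-YSD against 150.6 and 152.7 CPM in mock.

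RNase P subunits and the microprocessor were the other members called. Pop5 fell in G3-YSD (log2 fold change -0.60, edgeR adjusted p = 0.0391), and in HSV its value was -0.52 (edgeR adjusted p = 0.0588). Pop4 rose in HSV (0.60, edgeR adjusted p = 0.0363), and in G3-YSD its value was 0.53 (edgeR adjusted p = 0.0538). Whether the labels differ in these genes was not tested. Dgcr8, the partner of Drosha in cutting microRNA precursors, fell by 1.08 in G3-YSD and 0.95 in HSV on the log2 scale (edgeR, adjusted p = 0.0304 and 0.0445). The list's median log2 fold changes were -0.0038 in G3-YSD and -0.01 in HSV. In the fit without G3-YSD 2 and HSV 2, 2 genes were called higher and 7 lower in G3-YSD, and without G3-YSD 1 and HSV 1 the counts were 11 and 12. In HSV they were 3 and 7, and 11 and 11. The shares of all genes called in these fits were again 38.3% and 39.1%, and 43.6% and 43.7%.

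The complex of Hexim1 and DNA-PK that Neat1 joins in the response to foreign DNA, described in human cells, had 9 tested genes. In G3-YSD 2 rose, and in HSV 2 rose and 2 fell, where 5.16% and 5.2% of all genes were called. DESeq2 called 2 higher and 2 lower in each, where it called 2106 and 2138 genes in all. Xrcc5, the Ku80 subunit, had 45.8 and 48.8 CPM in G3-YSD and 43.8 and 41.0 CPM in HSV, against 27.7 and 28.9 CPM in mock, and rose in both (edgeR, adjusted p = 0.0212 and 0.0387). Pspc1 was the other member that rose. Hexim1, an inhibitor of the elongation factor P-TEFb, had 29.2 and 20.4 CPM in G3-YSD and 25.5 and 17.8 CPM in HSV, against 56.1 and 41.5 CPM in mock. It fell in HSV (log2 fold change -1.17, edgeR adjusted p = 0.0432) and was not called in G3-YSD (-0.98, edgeR adjusted p = 0.0722), as was Xrcc6, the Ku70 subunit (-0.57 with adjusted p = 0.0484 in HSV, -0.55 with 0.0561 in G3-YSD). Whether the labels differ in these genes was not tested. Prkdc, the catalytic subunit, had 13.9 and 47.4 CPM in G3-YSD and 15.3 and 45.7 CPM in HSV, against 22.3 and 19.3 CPM in mock, and was not called. After G3-YSD 2 and HSV 2 were left out, 3 genes were called higher and 3 lower in G3-YSD and 3 and 4 in HSV, and without G3-YSD 1 and HSV 1 the counts were 4 and 3 in both, where 38.3% to 43.7% of all genes were called.

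None of 39 genes of nuclear speckles, the bodies at which Malat1 collects, was called by edgeR in any comparison of a stimulus with mock. At an unadjusted p under 0.05 edgeR listed 10 in G3-YSD, 8 in HSV and 0 in the others. Of all 16840 genes tested, it listed 4072 in G3-YSD and 4092 in HSV. DESeq2 called 2 higher and 2 lower in G3-YSD, 0 higher and 3 lower in HSV, and 0 in the others. Over all genes it called 2106 in G3-YSD and 2138 in HSV. The median log2 fold changes were -0.05 in G3-YSD and -0.07 in HSV. Son and Srrm2 form the core of speckles. Son had 423.7 and 382.9 CPM in G3-YSD and 410.3 and 367.1 CPM in HSV, against 405.8 and 408.2 CPM in mock. Srrm2 had 474.9 and 177.1 CPM in G3-YSD and 461.8 and 186.4 CPM in HSV, against 527.8 and 544.9 CPM in mock. Srsf1, a splicing factor that binds Malat1, had 329.9 and 276.3 CPM in G3-YSD, against 419.8 and 428.6 CPM in mock (log2 fold change -0.49, edgeR adjusted p = 0.0952), and Srsf2 had -0.74 (edgeR adjusted p = 0.18). By 2-fold or more in both labels, 9 of the 39 (23.1%) were lower in library 2 than in library 1 and 0 were higher, against 17.3% lower and 7.4% higher among all genes. With G3-YSD 2 and HSV 2 left out, 8 were called higher and 10 lower in G3-YSD and 7 and 10 in HSV, and without G3-YSD 1 and HSV 1 the counts were 6 higher and 19 lower in G3-YSD and 6 higher and 18 lower in HSV. In these fits 38.3% to 43.7% of all genes were called.

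Among other long noncoding RNAs, 32 were tested and none was called by edgeR in any comparison of a stimulus with mock. At an unadjusted p under 0.05 edgeR listed 5 in G3-YSD, 5 in HSV and 0 in the others. Of all 16840 genes tested, it listed 4072 in G3-YSD and 4092 in HSV. DESeq2 called 1 higher and 1 lower in G3-YSD, 1 higher in HSV and 0 in the others. Over all genes it called 2106 in G3-YSD and 2138 in HSV. The median log2 fold changes, 0.105 in G3-YSD and 0.106 in HSV, were close to the 0.107 and 0.105 over all genes. Between the libraries of G3-YSD and HSV, 11 of the 32 (34.4%) were at least 2-fold lower in library 2 in both labels and 1 (3.12%) was higher, against 17.3% and 7.4% of all genes. Gas5 and Snhg1 are hosts of small nucleolar RNAs whose spliced transcripts decay during translation. Gas5 had 70.6 and 25.2 CPM in G3-YSD and 69.4 and 23.2 CPM in HSV, against 69.2 and 72.3 CPM in mock. Snhg1 had 138.0 and 31.5 CPM in G3-YSD and 139.0 and 33.1 CPM in HSV, against 70.3 and 97.5 CPM in mock. Tug1 had 129.2 and 83.2 CPM in G3-YSD, against 162.5 and 158.2 CPM in mock.

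Kcnq1ot1, a nuclear RNA of the imprinted Kcnq1 domain, had 35.0 and 21.2 CPM in G3-YSD and 37.4 and 20.9 CPM in HSV, against 16.7 and 19.6 CPM in mock. The gene that was higher in library 2 was Gm26917, named here after its values were seen, with 247.8 and 626.7 CPM in G3-YSD and 247.1 and 649.6 CPM in HSV. Neat1 had the direction of the 11 and Malat1 did not: its ratio of library 2 to library 1 was 1.32 in G3-YSD and 1.15 in HSV. Without G3-YSD 2 and HSV 2, 7 of 33 long noncoding RNAs were called higher and 4 lower in G3-YSD and 10 and 4 in HSV. Without G3-YSD 1 and HSV 1 the counts were 4 higher and 11 lower in G3-YSD and 4 higher and 10 lower in HSV. In the same fits 38.3% to 43.7% of all genes were called.

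The genes whose values followed Neat1 or Malat1 most closely over the 12 libraries differed between the 2 RNAs. Likeness was measured as the root mean square difference of log2 CPM, each gene centred on its own mean, over 9344 genes with a mean of at least 10 CPM. Closest to Neat1 were Esco2, a cohesin acetyltransferase, and Klf9, a transcription factor induced by glucocorticoids, both at 0.116. A930004D18Rik followed at 0.141, then Jund, an AP-1 subunit, at 0.161 and Ing1, a chromatin reader, at 0.182. Esco2 had 34.5 and 9.07 CPM in G3-YSD and 34.7 and 10.2 CPM in HSV, against 48.3 and 31.0 CPM in mock.

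Closest to Malat1 were Bdp1, a subunit of the RNA polymerase III factor TFIIIB, at 0.102, and Ints13 and Ints2, subunits of Integrator, at 0.117 and 0.118. Prpf39, a splicing factor of the U1 particle, followed at 0.122 and Specc1 at 0.123. Bdp1 had 152.0 and 176.4 CPM in G3-YSD and 153.5 and 179.7 CPM in HSV, against 99.9 and 116.8 CPM in mock. Malat1 ranked 8630 of 9344 in likeness to Neat1, with a difference of 1.04. The likeness rests on G3-YSD and HSV: over the 8 other libraries, 0 of the 5 closest genes were found again for Neat1 and 0 of 5 for Malat1.

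**Figure D5:**
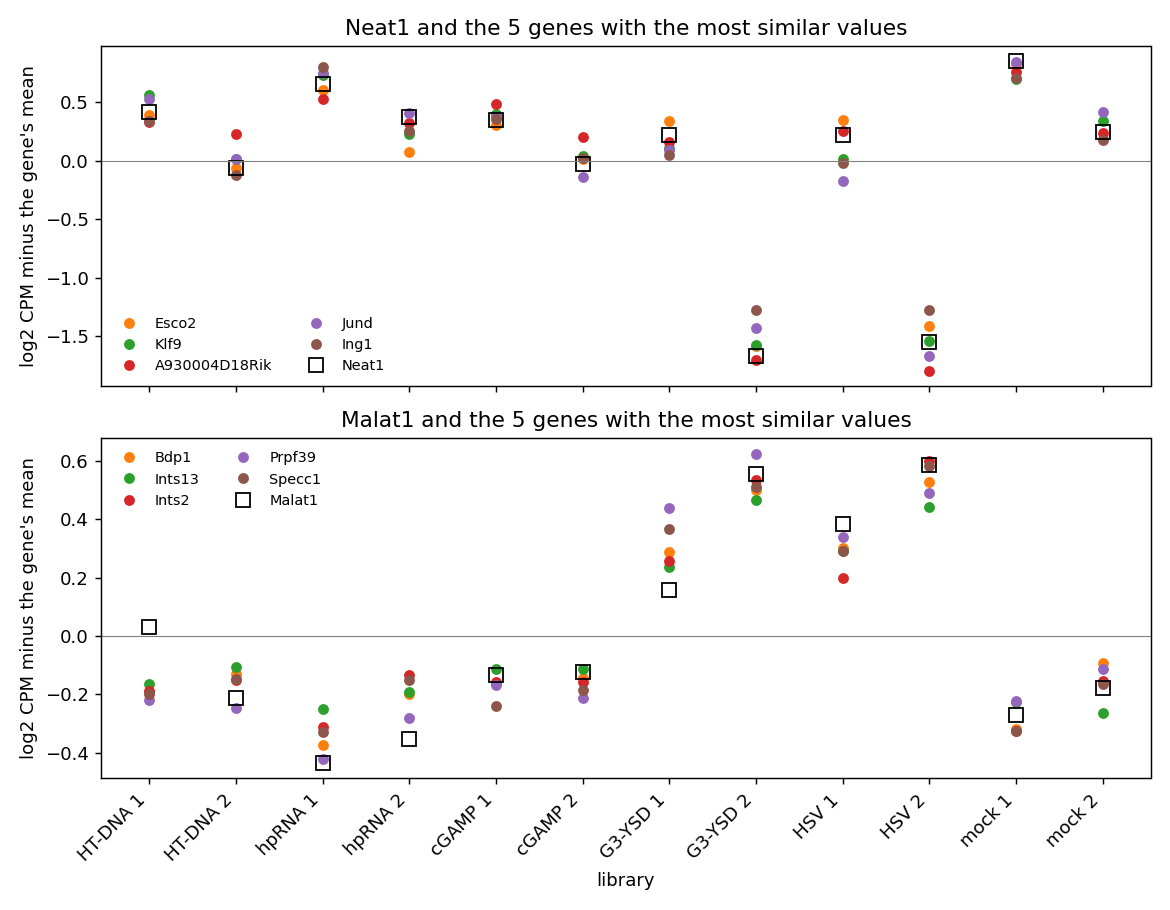
Log2 CPM minus each gene's mean over the 12 libraries, for Neat1 (top, open squares) and Malat1 (bottom, open squares) and the 5 genes closest to each (filled circles). The genes closest to Neat1 dip in G3-YSD 2 and HSV 2, and those closest to Malat1 are high in all 4 G3-YSD and HSV libraries.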

How the data were processed

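PolyA-selected RNA of 12 libraries was sequenced in pairs of 150 bases, per the labels' protocols. The deposited files hold raw read counts per Ensembl gene, and the submitters' processing notes name HISAT2, HTSeq and the build mm10. Neither versions nor the annotation used for counting nor its strandedness was given in the sources used here. Of 54532 gene IDs, 54409 matched GENCODE M21, which gave symbols and positions. Groups follow the labels.

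The analysis used edgeR 4.0.16 under R 4.3.3, with its default filter on low counts (16840 genes left), TMM scaling, a quasi-likelihood fit of all 12 libraries with each label as a term (6 residual degrees of freedom), and Benjamini-Hochberg adjustment within each comparison at 0.05. The spread of every label thus enters every test. CPM values were computed here from the deposited counts. DESeq2 1.42.0, other scalings, no filter, fewer libraries and a replicate term were alternatives. Intervals are exact Poisson (levels) or binomial (ratios) at 95% and cover counting error only. On simulated counts for G3-YSD against mock over 16840 genes, true log2 changes of 1 were called in 4 of 66 genes, those of 2 in 37 of 67 and those of 4 in 67 of 67, beside 3 false calls. Apart from the changes set, all simulated libraries shared the same mean for each gene and the spread typical of its level. The split between libraries of 1 label was thus not simulated, and these rates do not carry over to Neat1.

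The named genes are Neat1, Malat1, neighbours within 200 kb, the 5 genes most like each, up to 4 called genes per list with the smallest adjusted p, and a set of listed genes whatever their result. The members and lists were chosen with earlier results of these data known. Results for a few listed or neighbouring genes are not reported here.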

Additional observations from a re-analysis of the deposited data

How the results depend on the processing

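Neat1 kept its sign and stayed uncalled in HT-DNA and cGAMP against mock and in HT-DNA against hpRNA under all 16 alternatives of each, as did Malat1. Against mock in hpRNA, Neat1 changed sign without mock 1 (0.27) and without hpRNA 2 (0.08), and it ranged from -0.32 to 0.27 with 1 library left out. With 1 library left out, Malat1 in HSV ranged from 0.60 to 0.80 and was called in none of the 4 fits. Malat1 in G3-YSD ranged from 0.37 to 0.77 and was called without G3-YSD 1 (edgeR, adjusted p = 0.0442). Neat1 ranged from -2.25 to -0.37 in G3-YSD and from -2.14 to -0.37 in HSV, uncalled in each. Malat1 in HSV was called with DESeq2 (0.73). It was uncalled with upper quartile scaling (0.86), without a filter (0.68), and with only the 4 libraries compared (0.76). That scaling moved the median of all genes from 0.11 to 0.24 in G3-YSD and to 0.26 in HSV. Malat1 in G3-YSD was called with DESeq2 (0.61), without G3-YSD 2 and HSV 2 (0.37) and without G3-YSD 1 and HSV 1 (0.77). In that last fit, which leaves 1 library in each of these labels, Neat1 was at -2.25 in G3-YSD and -2.14 in HSV. Fits that leave out G3-YSD and HSV libraries, or both labels, were chosen after seeing the data.

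The number of genes called moved more. In G3-YSD and HSV against mock it was 1894 and 1892 without a filter, 2106 and 2138 with DESeq2, and 0 and 0 with only 4 libraries. Without G3-YSD 2 and HSV 2 it was 6533 and 6672, and without G3-YSD 1 and HSV 1 it was 7213 and 7233. With 1 library left out it ranged from 0 to 652 in G3-YSD, with 77 without G3-YSD 2 and 0 without either mock library. In HSV it ranged from 0 to 682, with 130 without HSV 2 and 0 without either mock library. DESeq2 called 1 gene in HT-DNA and 1 in hpRNA against mock. The cause of these differences was not tested. Within 100 kb, 1 neighbour was called in HSV, where 2 were called within 200 kb, and fewer genes lie in that window.

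A replicate block on the shared numbers was also fitted, although no label says that they pair the libraries and each comparison has only 2 pairs. Same-numbered libraries deviated together among HT-DNA, hpRNA, cGAMP and mock (r across genes 0.69 to 0.965) and between HSV and G3-YSD (0.984), but in opposite directions between these sets (-0.619 to -0.559). With the replicate block in the 4 libraries compared, 6 genes were called in HT-DNA, 182 in hpRNA, 6 in cGAMP, 0 in G3-YSD and 0 in HSV against mock, and 11 in HT-DNA against hpRNA. Malat1 in hpRNA was then called at -0.17 (adjusted p = 1.52e-06), but not with the block in 8 or in 12 libraries (adjusted p = 1 in both). In HSV it was not called (0.75, adjusted p = 0.684). With the block in 8 libraries, without G3-YSD and HSV, the counts were 14 in HT-DNA, 0 in hpRNA and 23 in cGAMP against mock and 25 in HT-DNA against hpRNA, and in 12 libraries hpRNA had 0. With 2 libraries a label, Neat1 changes of less than about 1.5 on the log2 scale lie within the intervals.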

Other observations

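Genes that trim and degrade nuclear noncoding RNA were read from the same fits. Of 21 tested, 0 rose and 1 fell in G3-YSD and in HSV, where 5.16% and 5.2% of all genes were called, and the medians were -0.22 in both, beside 0.11 over all genes. Tent4b, a polymerase that adds short tails to RNA bound for the nuclear exosome, fell to 36.4 and 33.2 CPM in G3-YSD and 39.6 and 33.5 CPM in HSV, against 67.4 and 62.4 CPM in mock (edgeR, adjusted p = 0.0182 and 0.0203). Exosc10 and Dis3, nucleases of the exosome, were not called. Exosc10 had 132.5 and 210.3 CPM in G3-YSD and 125.7 and 202.5 CPM in HSV, against 100.3 and 126.3 CPM in mock. Dis3 had 68.3 and 122.2 CPM in G3-YSD and 68.6 and 123.0 CPM in HSV, against 104.2 and 118.1 CPM in mock. Without G3-YSD 2 and HSV 2, 1 gene was called higher and 7 lower in both labels, and without G3-YSD 1 and HSV 1 the counts were 2 and 6 in both, where 38.3% to 43.7% of all genes were called.

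The summed level of 13 fibroblast markers, most of it Vim and Lgals1, was 4953 and 8070 CPM in G3-YSD and 4880 and 8058 CPM in HSV, against 5643 and 5422 CPM in mock. Of 12 markers tested, edgeR called 1 in each label, where 5.16% and 5.2% of all genes were called. Fbn1, which encodes fibrillin-1, was the marker that rose in both labels, to 113.2 and 127.4 CPM in G3-YSD and 109.9 and 116.9 CPM in HSV, against 67.0 and 67.7 CPM in mock (edgeR, adjusted p = 0.0182 and 0.0212). Without G3-YSD 2 and HSV 2, the median log2 fold changes of the 12 markers were -0.20 in G3-YSD and -0.36 in HSV, beside 0.03 over all genes. Without G3-YSD 1 and HSV 1 they were 0.76 in G3-YSD and 0.72 in HSV, beside 0.01 over all genes. The part of the fibroblast markers in the Neat1 values was not tested.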
